A study of Mus musculus with 18 samples.

Results

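RNA-seq of mouse splenic B cells was compared after 4 h with BAFF 60mer and after the same time without BAFF, in both cases after pretreatment with a control antibody. The comparison holds 6 of the study's 18 libraries, 3 with BAFF 60mer and 3 without, chosen by their labels, and the 11646 genes whose mean over all 18 libraries was at least 1 FPKM (fragments per kilobase of gene and per M fragments, where M is mega) of 35275 genes listed. The cells were pan B cells isolated from the spleens of C57BL/6 mice. They were kept for 1 h with 1000 ng/ml of control antibody and then for 4 h with 100 ng/ml of BAFF 60mer, the form of the cytokine with 60 subunits, or with no BAFF. The other libraries held BAFF 3mer, the form with 3 subunits, or cells pretreated with 1000 ng/ml of mBaffR-mFc, a mouse BAFF receptor fusion protein, in place of the control antibody. The age and sex of the mice, whether replicate libraries came from separate mice, and the control antibody's target are not given in the sources used here. The p-values therefore measure only the spread between these libraries, which may be technical.

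BAFF is a cytokine of the TNF family that keeps mature B cells alive. It binds the receptors BR3 (encoded by Tnfrsf13c), TACI (Tnfrsf13b) and BCMA, of which BR3 carries the main survival signal in resting B cells. Ligand binding draws the adaptor TRAF3 away from the kinase NIK, which then accumulates and drives processing of the NF-kB precursor p100, the product of Nfkb2. This slow branch is called noncanonical NF-kB signalling. The fast, canonical branch frees NF-kB dimers from IkB proteins such as those encoded by Nfkbia and Nfkbie, which are themselves NF-kB target genes.

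The library totals recovered from the FPKM steps were 18.2, 21.9 and 15.7 M fragments without BAFF and 12.2, 15.1 and 17.4 M with BAFF 60mer, in the order of replicates 1 to 3. Of the cell type marker lists, that of B cells, the labelled cell type, had the highest summed level: its 10 markers summed to 3278 to 3381 FPKM without BAFF and to 3105 to 3245 FPKM with BAFF 60mer. Markers of other spleen cells were present at lower summed levels, and some moved with the treatment. The 12 NK cell markers summed to 179 to 197 FPKM without BAFF and 158 to 162 FPKM with it, and 3 of the 12 fell (Klrd1, Klre1 and Il2rb). The 14 T cell markers summed to 72.2 to 80.8 against 66.4 to 68.1 FPKM, and Cd4 was listed at 0 in the libraries without BAFF. Most of this sum was Lck, at 49.8, 46.9 and 43.9 FPKM without BAFF and 40.6, 43.5 and 41.6 FPKM with BAFF 60mer. The 7 plasma cell markers summed to 153 to 163 against 127 to 137 FPKM, and of the 5 that were tested only Sdc1 passed. Of the 8 T cell markers tested 1 fell, as did 1 of the 9 tested of the 16 monocyte and macrophage markers. Over all tested genes 5.04% rose and 8.94% fell, and the T cell and monocyte counts lie near the share that fell. In the other direction 1 of the 5 tested of the 11 dendritic cell markers rose. This was Zbtb46, at 10.3, 9.28 and 10.4 FPKM without BAFF and 16.9, 15.9 and 14.7 FPKM with BAFF 60mer. The 11 markers summed to 45.4 to 50.4 FPKM without BAFF and 48.6 to 49.98 FPKM with it. The macrophage markers C1qa and C1qb were below the minimum level but higher in every treated library, while C1qc overlapped between groups. C1qa was at 0.264, 0.132 and 0.307 FPKM without BAFF and 0.944, 0.446 and 0.884 FPKM with BAFF 60mer. For these transcripts fewer cells of a type and less RNA per cell cannot be told apart. Their part in the results was not tested.

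A further set of transcripts split the libraries by group, except within BAFF 3mer under control antibody. The summed level of 6 connective tissue genes (Bgn, Dcn, Sparc, Col1a1, Col1a2 and Col3a1) was 8.14 to 12.9 FPKM in 8 libraries and 0 to 0.131 FPKM in the other 10. Among the 8 were all libraries with BAFF 60mer, after either pretreatment, and replicates 1 and 2 of BAFF 3mer under control antibody. Replicate 3 of that BAFF 3mer group and all libraries of the remaining groups were among the 10. All 3 libraries with BAFF 60mer under control antibody carried these transcripts, and none of the 3 without BAFF did, so that here the treatment and the split cannot be told apart. For that reason BAFF 60mer was also compared with the 2 libraries of BAFF 3mer under control antibody that carried the same transcripts, called below the comparison among carrying libraries. That comparison uses the same 3 libraries of BAFF 60mer and a different cytokine form as its reference.

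With BAFF 60mer, 587 genes rose and 1041 fell, or 1628 in all, which is 5.04% and 8.94% of the 11646 tested (limma, Benjamini-Hochberg adjusted p under 0.05). The changes were small. The median absolute log2 difference of the called genes was 0.29 on the log2(FPKM + 1) scale, and 78 rises and 38 falls exceeded 1.5-fold. The 3 and 3 libraries did not overlap for 3804 genes, 32.7% of those tested, of which 1572 were higher and 2232 lower with BAFF 60mer, and 1597 of the 1628 called genes were among them. At an unadjusted limma p under 0.05, 3452 of the 11646 tested genes passed in either direction. The list counts given below at that threshold are to be read against this background. Without replicate 1 of BAFF 60mer, the library with the lowest total, 264 genes rose and 492 fell, and without replicate 1 of the no-BAFF group 282 rose and 541 fell. Scaled by medians of ratios over the tested genes, the same libraries gave 763 rises and 880 falls, so that rises made up 46.4% of calls and not 36.1%.

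**Figure D1:**
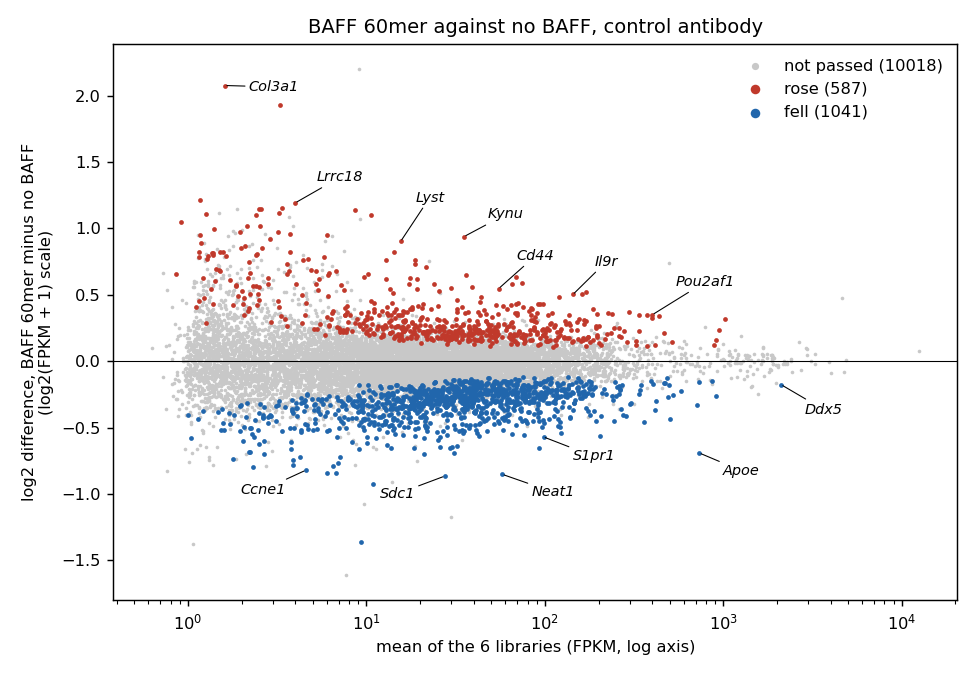
Difference of BAFF 60mer from no BAFF (log2 of FPKM + 1, vertical axis) against the mean level of the 6 libraries (FPKM, log axis), 1 point per tested gene. Red points are the 587 genes that rose, blue points the 1041 that fell; most called differences lie below 0.5 in size, and Kynu, Sdc1 and Neat1 stand out among called genes above 20 FPKM.

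Kynu, which encodes kynureninase of tryptophan breakdown, had the smallest adjusted p of all genes. Its level was 23.3, 23.7 and 24.8 FPKM without BAFF and 46.8, 46.8 and 46.7 FPKM with BAFF 60mer. The 3 treated libraries were nearly equal and lay far above all 3 untreated ones, with a log2 difference of 0.94 ± 0.0488 (SE, n = 3 and 3; limma adjusted p = 9.80e-09). Cd44, the hyaluronan receptor and a marker of lymphocyte activation, was at 45.3, 45.2 and 43.3 FPKM without BAFF and 65.8, 68.6 and 62.6 FPKM with BAFF 60mer, without overlap (0.55 ± 0.0443, limma adjusted p = 3.27e-06). Pikfyve, the lipid kinase that makes phosphatidylinositol 3,5-bisphosphate on endosomes, was at 51.7, 50.2 and 54.4 FPKM without BAFF and 80.9, 79.8 and 74.5 FPKM with BAFF 60mer (0.58 ± 0.0521, limma adjusted p = 8.64e-06). Rapgef1, an exchange factor for the small GTPase Rap1, was at 84.6, 81.7 and 84.4 FPKM without BAFF and 109.5, 114 and 115 FPKM with BAFF 60mer (0.43 ± 0.0396, limma adjusted p = 1.02e-05). Lpcat1, an acyltransferase of phospholipid remodelling, and St8sia6, a sialyltransferase, completed the rises of smallest adjusted p. Lpcat1 was at 55.7, 61.7 and 59.6 FPKM without BAFF and 87.6, 90.2 and 89.8 FPKM with BAFF 60mer (0.59 ± 0.0556). St8sia6 was at 7.19, 7.51 and 8.47 FPKM without BAFF and 12.6, 12.9 and 12.8 FPKM with BAFF 60mer (0.66 ± 0.0626). In each of these genes the lowest treated library was above the highest untreated one.

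Among the falls the smallest adjusted p belonged to S1pr1, the sphingosine 1-phosphate receptor by which lymphocytes leave lymphoid tissue. Its level was 114, 122 and 117 FPKM without BAFF and 79, 81.4 and 76.6 FPKM with BAFF 60mer, a log2 difference of -0.57 ± 0.0346 (limma adjusted p = 5.79e-08). Sla, an adaptor that dampens antigen receptor signalling, was at 68.9, 73.2 and 73.1 FPKM without BAFF and 52.7, 52.6 and 51 FPKM with BAFF 60mer (-0.45 ± 0.0393, limma adjusted p = 6.80e-06). Sdc1 encodes the syndecan CD138, a surface marker of plasma cells, and had the largest fall of these. It was at 34.3, 37.4 and 35.5 FPKM without BAFF and 18.8, 18.4 and 20.2 FPKM with BAFF 60mer (-0.87 ± 0.0783, limma adjusted p = 8.64e-06). Serpinb1a, a serine protease inhibitor, was at 38.3, 39 and 33.9 FPKM without BAFF and 24.6, 22.7 and 22.5 FPKM with BAFF 60mer (-0.65 ± 0.0653). Slc50a1, a sugar transporter, was at 110.0, 116 and 111 FPKM without BAFF and 79.1, 80.6 and 79.3 FPKM with BAFF 60mer (-0.49 ± 0.0496). Pik3ip1, an inhibitor of PI3K at the membrane, was at 48.7, 50.4 and 46 FPKM without BAFF and 31.6, 33.8 and 35.2 FPKM with BAFF 60mer (-0.52 ± 0.0545). None of the 6 genes had overlapping groups, and each kept its call when any single library was left out.

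**Figure D2:**
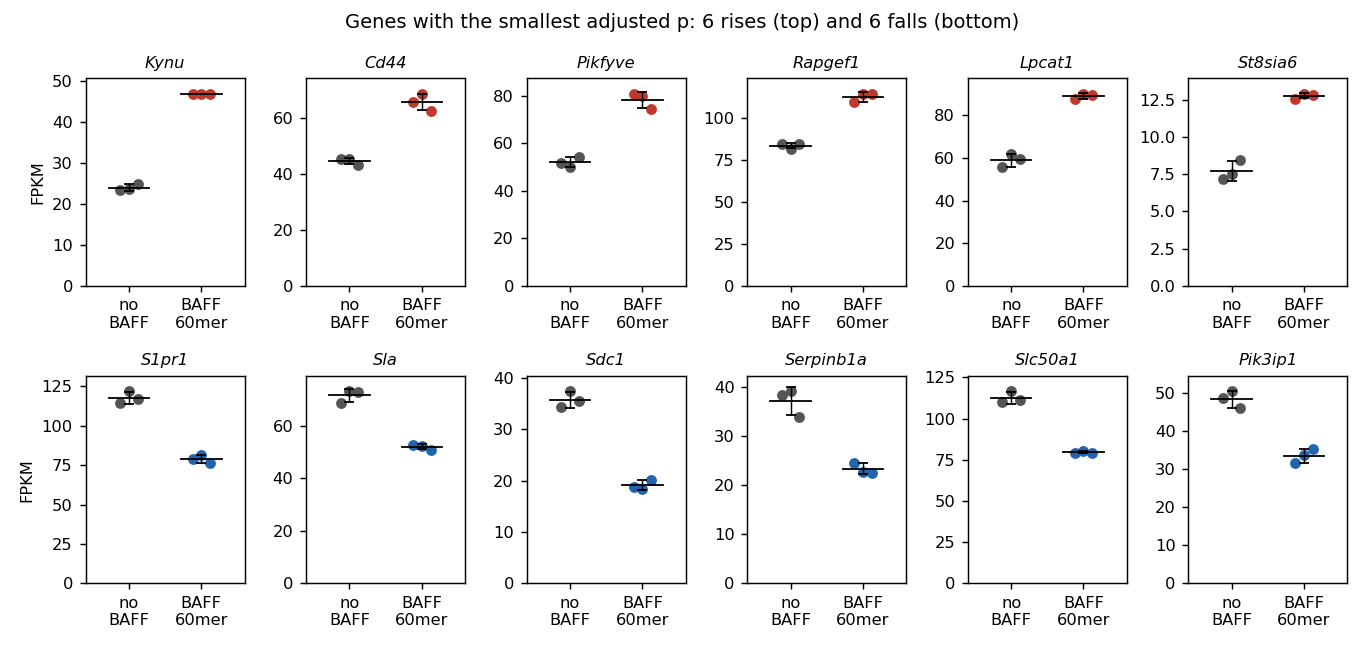
Level (FPKM, linear axis from 0) of the 6 rises (top) and 6 falls (bottom) with the smallest adjusted p. Points are single libraries, lines the group means and bars the SD of 3 libraries; in all 12 genes the libraries with BAFF 60mer lie wholly apart from those without BAFF.

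By size rather than p, the largest rise by the rule for naming genes was that of Col3a1, 1 of the connective tissue genes above. It was listed at 0 in all 3 untreated libraries and at 3.75, 2.93 and 3.02 FPKM with BAFF 60mer (a difference of 2.08 ± 0.412 in log2(FPKM + 1), which is no fold; limma adjusted p = 0.00411), and its difference in the comparison among carrying libraries was -0.38. Col3a1 reached the minimum level only through the libraries that carried connective tissue transcripts, so its p is no independent support. It is also 1 of the genes by which those libraries were picked. The loss of its rise among them therefore followed from that choice and is no check. Kynu, at a higher level than the others, was the fourth of the 12 largest. Asb2, the substrate receptor of a ubiquitin ligase, was at 2.04, 2.10 and 2.47 FPKM without BAFF and 5.57, 5.46 and 4.65 FPKM with BAFF 60mer (0.96 ± 0.15, limma adjusted p = 0.000731). Lyst, the lysosomal trafficking regulator, was at 9.87, 9.9995 and 11.9 FPKM without BAFF and 21.7, 20.5 and 19.6 FPKM with BAFF 60mer (0.90 ± 0.0949, limma adjusted p = 2.97e-05). Nav2 was at 1.09, 1.11 and 1.37 FPKM without BAFF and 3.19, 3.15 and 2.66 FPKM with BAFF 60mer (0.87 ± 0.12, limma adjusted p = 0.000298). These 3 were separated and kept their calls without any single library. Lrrc18 was at 2.28, 1.62 and 1.99 FPKM without BAFF and 9.0, 4.48 and 4.63 FPKM with BAFF 60mer, where replicate 1 was well above the other treated libraries, and without that replicate its limma adjusted p was 0.0578. Usp50 also kept its call without any single library. The other 5 of the 12 largest rises were Fam196b, Nexn, Tmem204, Aknaos and H60b. Fam196b and H60b each lost their call in 5 of the 6 fits that left out a single library, and Nexn, Tmem204 and Aknaos in 4 of the 6, with limma adjusted p up to 0.21, 0.141, 0.0887, 0.177 and 0.168 in this order. Aknaos is antisense to Akna, and since the sources used here do not say whether the counting used strand, reads of the pair may not be told apart.

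The largest falls included regulators of the cell cycle and of sphingosine 1-phosphate. Neat1, the noncoding RNA that scaffolds paraspeckles, was at 81.7, 70.8 and 72.1 FPKM without BAFF and 40.2, 40.4 and 42.3 FPKM with BAFF 60mer (-0.85 ± 0.0989, limma adjusted p = 6.39e-05). Its difference among carrying libraries was smaller, at -0.42 ± 0.0997 (limma adjusted p = 0.0375). Ccne1, cyclin E of the G1-to-S transition, was at 6.48, 5.55 and 6.28 FPKM without BAFF and 3.59, 3.06 and 2.46 FPKM with BAFF 60mer (-0.82 ± 0.112, limma adjusted p = 0.000262). Cdkn2d, a CDK inhibitor, was at 8.0, 8.56 and 8.90 FPKM without BAFF and 4.05, 4.32 and 5.11 FPKM with BAFF 60mer (-0.79 ± 0.157, limma adjusted p = 0.00412). In all 3 genes the treated libraries lay below the untreated ones. Spns2, which exports sphingosine 1-phosphate, was at 8.49, 8.76 and 9.73 FPKM without BAFF and 5.90, 4.73 and 4.06 FPKM with BAFF 60mer (-0.77 ± 0.109, limma adjusted p = 0.000346). B3gnt8, which extends N-acetyllactosamine chains, was at 6.89, 9.51 and 10.7 FPKM without BAFF and 3.77, 4.80 and 5.03 FPKM with BAFF 60mer (-0.84 ± 0.147, limma adjusted p = 0.00168). Hepacam2 was at 10.2, 8.86 and 8.36 FPKM without BAFF and 4.54, 5.73 and 5.18 FPKM with BAFF 60mer (-0.72 ± 0.102, limma adjusted p = 0.000348). Nrgn, a calmodulin-binding protein, fell too (-0.84 ± 0.18, limma adjusted p = 0.00617). Slfn1, Frat1, Rnf5 and Insl3 were also among the 12 largest, but did not keep their calls. Of the 6 fits without a single library, 5 did not call Frat1, 5 did not call Rnf5, 3 did not call Slfn1 and 1 did not call Insl3, with limma adjusted p for Slfn1, Frat1, Rnf5 and Insl3 up to 0.106, 0.17, 0.169 and 0.0512. For Insl3 the difference among carrying libraries was 0.02.

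The noncanonical NF-kB list had 8 tested members, of which 3 rose and none fell (4 higher and 0 lower at an unadjusted limma p under 0.05), with a median log2 difference of 0.09 against -0.02 over all tested genes. Without single libraries 2 to 3 rose. Birc3, the ubiquitin ligase that acts with TRAF3 on NIK, was the most abundant of the 3. It was at 329.8, 327 and 329.7 FPKM without BAFF and 417, 419 and 419 FPKM with BAFF 60mer (0.35 ± 0.036, limma adjusted p = 2.81e-05), with all treated libraries above all untreated ones. Traf3 was at 23.8, 24.7 and 24.1 FPKM without BAFF and 29.3, 28.5 and 30.2 FPKM with BAFF 60mer (0.27 ± 0.0511, limma adjusted p = 0.00334). Nfkb2, which encodes p100, was at 123, 119.9 and 132 FPKM without BAFF and 141, 146 and 168 FPKM with BAFF 60mer (0.28 ± 0.0813, limma adjusted p = 0.0336). The Nfkb2 libraries did not overlap but spread widely, and its call was lost in 4 of the 6 fits that left out a single library (limma adjusted p up to 0.118). Relb, whose product pairs with the processed p52, was at 74.2, 69.2 and 70.2 FPKM without BAFF and 72.5, 72.7 and 70.7 FPKM with BAFF 60mer (0.02 ± 0.0441) and did not pass.

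In the list of canonical NF-kB genes and IkB feedback, 3 of 19 tested members rose and 1 fell, with a median log2 difference of 0.09. Nfkbie, which encodes IkB epsilon, was at 83.1, 76.8 and 77.6 FPKM without BAFF and 103, 99.3 and 104 FPKM with BAFF 60mer (0.36 ± 0.041, limma adjusted p = 5.13e-05). Nfkbia, which encodes IkB alpha, was at 163, 151 and 145 FPKM without BAFF and 186, 192 and 189 FPKM with BAFF 60mer (0.30 ± 0.0592, limma adjusted p = 0.00368). Traf1, a TNF receptor adaptor, was at 62.1, 59.7 and 56.3 FPKM without BAFF and 82, 74.6 and 73.2 FPKM with BAFF 60mer (0.36 ± 0.054, limma adjusted p = 0.000502). The treated and untreated libraries were apart in all 3 genes. The member that fell, Tnip2, had a log2 difference of -0.34 ± 0.0934 and lost its call in 3 of the 6 fits without a single library (limma adjusted p up to 0.118). The subunit gene Nfkb1 was at 298, 291 and 299.5 FPKM without BAFF and 321, 318 and 307 FPKM with BAFF 60mer and did not pass (limma adjusted p = 0.118).

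The kB motif, the sequence that NF-kB dimers bind, was searched in the promoters of these genes, and some windows that held it are shown. Of the 14 genes that rose in the lists of noncanonical NF-kB, canonical NF-kB, pro-survival and activation genes, 13 had a promoter in the RefSeq table (GRCm38.p6, 250 bases before to 50 after the start), and 6 had the motif in at least 1 window: Bcl2l1, Il2ra, Nfkb2, Nfkbia, Nfkbie and Traf3. Counted by window this was 8 of 19. These genes were picked by list and by their rise in these data, so their share is no test. The motif has 10 bases, was searched on both strands, and overlapping matches were allowed. Among windows of all tested genes 5.16% held it (565 of 10945). It was in 9.03% of the windows of genes that rose (50 of 554) and in 3.73% of those of genes that fell (40 of 1073). Genes with several starts have several windows, so windows are not independent. The Nfkb2 windows at chr19:46305445-46305744 and chr19:46305680-46305979 overlap and share a match, which is counted in both. A match is a stretch of letters and not a measured site. Below, the matching bases are in capitals and the rest in lower case, 5′ to 3′ on the strand of the gene. The Nfkb2 window at chr19:46304487-46304786 (plus strand) held 3 matches, of which the first 2 overlap. The Il2ra window held 2 matches, which overlap. The Nfkbie window is at chr17:45555450-45555749 (plus strand), the Nfkbia window at chr12:55492598-55492897 (minus strand), the Traf3 window at chr12:111166120-111166419 (plus strand) and the Il2ra window at chr2:11642542-11642841 (plus strand).
Nfkb2: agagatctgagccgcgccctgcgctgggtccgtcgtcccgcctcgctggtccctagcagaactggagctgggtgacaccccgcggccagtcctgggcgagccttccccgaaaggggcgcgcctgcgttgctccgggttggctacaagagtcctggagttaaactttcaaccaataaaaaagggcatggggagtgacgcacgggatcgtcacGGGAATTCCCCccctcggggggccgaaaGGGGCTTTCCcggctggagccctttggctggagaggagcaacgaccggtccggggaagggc
Nfkbie: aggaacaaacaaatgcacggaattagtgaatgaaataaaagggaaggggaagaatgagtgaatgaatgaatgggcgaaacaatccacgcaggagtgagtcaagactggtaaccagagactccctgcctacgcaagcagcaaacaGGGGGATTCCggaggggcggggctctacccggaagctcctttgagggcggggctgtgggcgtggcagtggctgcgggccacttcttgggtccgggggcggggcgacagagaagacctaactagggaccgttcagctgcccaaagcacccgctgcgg
Nfkbia: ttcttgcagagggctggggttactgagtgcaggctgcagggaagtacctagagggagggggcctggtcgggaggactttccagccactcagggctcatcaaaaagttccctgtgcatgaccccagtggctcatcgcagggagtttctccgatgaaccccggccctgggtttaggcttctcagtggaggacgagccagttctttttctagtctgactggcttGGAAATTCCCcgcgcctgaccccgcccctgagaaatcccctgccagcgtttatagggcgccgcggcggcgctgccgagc
Traf3: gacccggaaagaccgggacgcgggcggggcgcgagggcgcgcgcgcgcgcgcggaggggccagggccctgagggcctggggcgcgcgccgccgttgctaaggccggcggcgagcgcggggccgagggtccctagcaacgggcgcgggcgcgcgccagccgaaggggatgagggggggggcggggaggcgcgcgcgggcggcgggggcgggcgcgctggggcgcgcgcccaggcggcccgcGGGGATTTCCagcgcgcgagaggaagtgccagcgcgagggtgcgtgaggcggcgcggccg
Il2ra: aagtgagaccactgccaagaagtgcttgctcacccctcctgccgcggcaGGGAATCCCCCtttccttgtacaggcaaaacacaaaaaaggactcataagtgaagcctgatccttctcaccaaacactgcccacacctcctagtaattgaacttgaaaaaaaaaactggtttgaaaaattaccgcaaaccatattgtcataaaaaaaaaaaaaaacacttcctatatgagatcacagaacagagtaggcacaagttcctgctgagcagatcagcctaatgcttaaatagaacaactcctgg

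Pro-survival genes gave 5 rises and no fall among 14 tested members (10 and 0 at an unadjusted limma p under 0.05), with a median log2 difference of 0.20. Bcl2l1, which encodes BCL-XL, was at 20.1, 21.4 and 20.2 FPKM without BAFF and 28.4, 32.4 and 29.8 FPKM with BAFF 60mer (0.53 ± 0.0751, limma adjusted p = 0.000348). Pim2, a kinase that promotes survival, was at 57.1, 61.6 and 62 FPKM without BAFF and 81.5, 77.2 and 86.9 FPKM with BAFF 60mer (0.44 ± 0.0855, limma adjusted p = 0.00391). Cflar, which encodes the caspase-8 inhibitor c-FLIP, was at 95.3, 89.8 and 92.8 FPKM without BAFF and 113, 109 and 106 FPKM with BAFF 60mer (0.24 ± 0.0421, limma adjusted p = 0.00195). No library of the 3 genes lay on the wrong side of the other group. Xiap and Birc3, the latter also in the noncanonical list, were the other 2 that rose. Mcl1, a survival protein that B cells need, was at 320.3, 341 and 330.2 FPKM without BAFF and 314, 326 and 337 FPKM with BAFF 60mer and did not pass (-0.02 ± 0.0489). Bcl2 was at 17.1, 18.1 and 17.8 FPKM without BAFF and 19.8, 20.2 and 22.4 FPKM with BAFF 60mer, separated between groups, but did not pass either (limma adjusted p = 0.0866). Of 15 tested pro-apoptotic genes 1 rose and 2 fell. Bmf, a BH3-only protein, was at 70.4, 72.9 and 75.8 FPKM without BAFF and 55.2, 59.4 and 62.9 FPKM with BAFF 60mer (-0.30 ± 0.0665, limma adjusted p = 0.00782), and Casp8, caspase-8, had a difference of -0.24 ± 0.0531.

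Receptors for BAFF were little changed. Tnfrsf13c, which encodes BR3, was at 102, 104 and 102 FPKM without BAFF and 99.4, 100.3 and 93.8 FPKM with BAFF 60mer and did not pass (-0.07 ± 0.0388, limma adjusted p = 0.248). Tnfrsf13b, which encodes TACI, was at 151, 139 and 144 FPKM without BAFF and 124, 126 and 127 FPKM with BAFF 60mer, a fall with separate groups (-0.20 ± 0.0415, limma adjusted p = 0.00524). These were the only 2 of 5 BAFF and APRIL receptor and ligand genes that reached the minimum level. Among 13 other TNF family receptors and ligands 2 rose, Cd40 and Lta. Cd40, the receptor for T cell help, was at 65.5, 67.6 and 61.1 FPKM without BAFF and 93.8, 78.5 and 87.3 FPKM with BAFF 60mer (0.41 ± 0.0607, limma adjusted p = 0.000455). Lta, which encodes lymphotoxin alpha, had a difference of 0.37 ± 0.105 and was not called in 3 of the 6 fits without a single library (limma adjusted p up to 0.127).

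Of 19 tested activation and costimulation genes 4 rose and none fell (5 and 0 at an unadjusted limma p under 0.05), and 4 rose also without any single library. Beside Cd40 and Cd44 these were Il2ra and Icam1. Il2ra, which encodes the IL-2 receptor alpha chain CD25, was at 27, 27.7 and 28.1 FPKM without BAFF and 37.4, 37.9 and 34.8 FPKM with BAFF 60mer (0.40 ± 0.0576, limma adjusted p = 0.000413). Icam1, the ligand of the integrin LFA-1, was at 23.6, 23.8 and 23.3 FPKM without BAFF and 28.1, 27.7 and 27.7 FPKM with BAFF 60mer (0.23 ± 0.0536, limma adjusted p = 0.0103). The 3 treated Icam1 libraries were within 1 FPKM of each other, as were the 3 untreated ones. Cd86, a costimulatory ligand, overlapped between groups at 132, 129 and 119 FPKM without BAFF and 128, 115 and 106 FPKM with BAFF 60mer and did not pass, and neither did Cd69 (0.12 ± 0.118). The median log2 difference of the list was 0.17, but it was -0.11 among carrying libraries, where 3 members were called higher and none lower.

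Genes of B cell identity and of cytokine signalling moved in both directions. In the transcription factor list 4 of 25 rose and 2 fell. Pou2af1, the octamer coactivator needed for germinal centres, was at 342, 366 and 349 FPKM without BAFF and 426, 463 and 460.3 FPKM with BAFF 60mer (0.35 ± 0.0508, limma adjusted p = 0.000407). Spib, an ETS factor, was at 201, 196 and 196 FPKM without BAFF and 241, 267 and 256 FPKM with BAFF 60mer (0.36 ± 0.0399, limma adjusted p = 3.83e-05). Lef1, a partner of beta-catenin that is typical of immature lymphocytes, was at 4.03, 4.69 and 4.91 FPKM without BAFF and 7.34, 8.33 and 7.42 FPKM with BAFF 60mer (0.65 ± 0.0877, limma adjusted p = 0.000254). All 3 rose without overlap. Id3, an inhibitor of E proteins, was at 83.3, 90.03 and 75.8 FPKM without BAFF and 65, 63.5 and 65.5 FPKM with BAFF 60mer and fell (-0.35 ± 0.0573, limma adjusted p = 0.000969). Fcer2a, which encodes the low-affinity IgE receptor CD23 of follicular B cells, was at 178, 168 and 169 FPKM without BAFF and 209.6, 229.9 and 220.1 FPKM with BAFF 60mer (0.35 ± 0.0399, limma adjusted p = 5.26e-05). Cr2, the complement receptor CD21, was at 30.8, 29.3 and 32.4 FPKM without BAFF and 35.4, 36.5 and 35.5 FPKM with BAFF 60mer (0.21 ± 0.045, limma adjusted p = 0.00636). Il9r, an IL-9 receptor chain, was at 119, 116 and 121 FPKM without BAFF and 159.7, 171 and 175 FPKM with BAFF 60mer (0.50 ± 0.0598, limma adjusted p = 7.63e-05). The 3 receptor genes all rose with separate groups. Il12a, the p35 chain of IL-12 and IL-35, was at 16.1, 14.8 and 14.1 FPKM without BAFF and 20.3, 21.6 and 18.3 FPKM with BAFF 60mer (0.40 ± 0.0766, limma adjusted p = 0.00358). Il17ra, by contrast, was at 51.6, 52.6 and 55.2 FPKM without BAFF and 40.02, 41.7 and 44.3 FPKM with BAFF 60mer and fell (-0.33 ± 0.0547, limma adjusted p = 0.00108). In all, 4 of 33 cytokine receptor and JAK-STAT genes rose and 3 fell, and 3 of 18 cytokine and chemokine genes rose and none fell (3 higher and 3 lower at an unadjusted limma p under 0.05).

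Rises were also seen in lists whose called members moved in both directions. Ticam2, the adaptor TRAM of Toll-like receptor signalling, was at 2.93, 2.96 and 3.08 FPKM without BAFF and 6.28, 5.42 and 5.68 FPKM with BAFF 60mer (0.77 ± 0.0824, limma adjusted p = 3.38e-05), 1 of 2 rises and 1 fall in a list of 23. Ccnd2, cyclin D2, was at 13.9, 15.2 and 16 FPKM without BAFF and 23.5, 23 and 24.3 FPKM with BAFF 60mer (0.62 ± 0.0661, limma adjusted p = 3.00e-05), in a list of 18 G1 cyclins and CDK inhibitors with 2 rises and 3 falls. Ifi30, the thiol reductase of antigen processing, was at 99.2, 106 and 95.9 FPKM without BAFF and 141, 133 and 148 FPKM with BAFF 60mer (0.48 ± 0.0593, limma adjusted p = 0.000106), 1 of 2 rises and 2 falls among 15 MHC class II presentation genes. The groups were apart in all 3. H2-Ob, which with its partner restrains peptide loading, fell in the same list, from 577, 569 and 556 to 461, 492 and 476 FPKM (-0.25 ± 0.0438, limma adjusted p = 0.00158). Il4i1, an amino acid oxidase, was at 173, 151 and 156 FPKM without BAFF and 186, 212 and 234 FPKM with BAFF 60mer (0.39 ± 0.0979, limma adjusted p = 0.0152) and lost its call without replicate 2 of the no-BAFF group and without replicate 3 of BAFF 60mer (limma adjusted p up to 0.062). Il4i1 and Kynu were the 2 rises among 16 tested genes of tryptophan breakdown and NAD synthesis, of which 3 fell.

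The list of quiescence, FOXO and KLF genes held 25 tested members, of which 10 fell and none rose (11 and 2 at an unadjusted limma p under 0.05), with a median log2 difference of -0.19. Klf2, a transcription factor that keeps lymphocytes quiescent and drives S1pr1, was at 69.8, 72.1 and 65.4 FPKM without BAFF and 45.3, 49.4 and 49.2 FPKM with BAFF 60mer (-0.52 ± 0.0615, limma adjusted p = 7.63e-05). Klf4 was at 5.38, 5.01 and 5.43 FPKM without BAFF and 3.84, 2.93 and 3.28 FPKM with BAFF 60mer (-0.53 ± 0.0838, limma adjusted p = 0.000749). Cdkn1b, the CDK inhibitor p27, was at 80.6, 82 and 79.2 FPKM without BAFF and 58.7, 68 and 67.1 FPKM with BAFF 60mer (-0.32 ± 0.0684, limma adjusted p = 0.00664). The 3 genes, with Pik3ip1 above, were lower in every treated library than in any untreated one. Btg2, an antiproliferative gene, was at 139, 142 and 132 FPKM without BAFF and 117, 122 and 114 FPKM with BAFF 60mer (-0.23 ± 0.0362, limma adjusted p = 0.000865). The other 5 were Klf13, Tsc22d3, Ccng2, Slfn2 and Txnip, and falls in the list ran from -0.22 to -0.53. Foxo1 itself was at 41.9, 42.9 and 45.2 FPKM without BAFF and 38.8, 42.6 and 42.3 FPKM with BAFF 60mer and did not pass (-0.07 ± 0.0595). The count of falls was 7 to 10 when single libraries were left out.

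Among 16 tested chemotactic receptors 3 fell and 1 rose. Beside S1pr1, S1pr4 was at 36.2, 40.9 and 38.8 FPKM without BAFF and 22.1, 21.4 and 27.5 FPKM with BAFF 60mer (-0.69 ± 0.099, limma adjusted p = 0.000381). Lpar5, a receptor for lysophosphatidic acid, was at 2.31, 2.67 and 3.0 FPKM without BAFF and 1.41, 1.31 and 1.51 FPKM with BAFF 60mer (-0.60 ± 0.115, limma adjusted p = 0.00337). Cxcr5, which draws B cells into follicles, was at 154, 156 and 154 FPKM without BAFF and 174, 174 and 172 FPKM with BAFF 60mer, a small rise with separate groups (0.16 ± 0.034, limma adjusted p = 0.00569). Of 27 adhesion molecules 3 rose and 6 fell. Itgb7, the beta7 integrin chain, was at 33.1, 36.4 and 39.1 FPKM without BAFF and 20.5, 21.4 and 26.2 FPKM with BAFF 60mer (-0.65 ± 0.136, limma adjusted p = 0.00536). Cd2 was at 74.8, 74.2 and 79.1 FPKM without BAFF and 61.1, 57.1 and 58.2 FPKM with BAFF 60mer (-0.36 ± 0.0537, limma adjusted p = 0.000452). Cd2 and Itgb7 are also expressed by T and NK cells, whose summed markers were lower with BAFF 60mer. The T cell sum was mostly Lck, while the T cell markers Cd3e, Cd3d and Cd3g were low and overlapped between groups. The part of these cells in the 2 falls was not tested.

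Inhibitory receptors and phosphatases gave 8 falls and no rise among 20 tested members (9 and 1 at an unadjusted limma p under 0.05), with a median log2 difference of -0.14, and 7 to 8 falls without any single library. Dok3, an adaptor that restrains B cell receptor signalling, was at 118, 112 and 111 FPKM without BAFF and 66.1, 69.8 and 80.3 FPKM with BAFF 60mer (-0.65 ± 0.0946, limma adjusted p = 0.000404). Siglecg, a sialic acid receptor that recruits phosphatases, was at 94.5, 91.5 and 90.1 FPKM without BAFF and 61.3, 69 and 68.9 FPKM with BAFF 60mer (-0.47 ± 0.0933, limma adjusted p = 0.00422). Pirb, which binds MHC class I, was at 15.7, 14.8 and 14.3 FPKM without BAFF and 10.4, 11.5 and 10.1 FPKM with BAFF 60mer (-0.45 ± 0.0697, limma adjusted p = 0.000649). Ceacam1 was at 5.08, 5.26 and 5.45 FPKM without BAFF and 3.44, 3.67 and 3.05 FPKM with BAFF 60mer (-0.51 ± 0.0922, limma adjusted p = 0.00209). All 4 were separated between groups. The others were Cd22, Fcgr2b, Ptpn22 and Fcrla. Pirb and Ceacam1 have close relatives in the genome, among which reads may have been split. In B cell receptor signalling 4 of 25 genes rose and 5 fell. Prkcb, the kinase PKC beta that links the receptor to NF-kB, was at 127, 123 and 137 FPKM without BAFF and 147, 155 and 152 FPKM with BAFF 60mer (0.23 ± 0.0416, limma adjusted p = 0.00211). Rasgrp3 was at 53.8, 55 and 57.1 FPKM without BAFF and 64.4, 65 and 66.5 FPKM with BAFF 60mer (0.24 ± 0.0531, limma adjusted p = 0.00846).

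The lysosome list had 12 falls and 2 rises among 32 tested members, with a median log2 difference of -0.13. Its largest change was the rise of Lyst above. Tfeb, the transcription factor of lysosomal genes, was at 35.6, 42.4 and 44.8 FPKM without BAFF and 27, 26.2 and 31.6 FPKM with BAFF 60mer (-0.52 ± 0.114, limma adjusted p = 0.00753). Neu1, a lysosomal sialidase, was at 41.5, 38.5 and 39.4 FPKM without BAFF and 27.4, 31 and 32.4 FPKM with BAFF 60mer (-0.39 ± 0.0735, limma adjusted p = 0.00318). Mcoln2, an endolysosomal cation channel, was at 70.3, 62.4 and 66.4 FPKM without BAFF and 51.6, 51.4 and 50.1 FPKM with BAFF 60mer (-0.37 ± 0.0729, limma adjusted p = 0.00391). Falls in the list ran from -0.12 to -0.52 and included the proteases Ctsa, Ctsc, Ctsd and Ctsh. Monocytes and macrophages express these genes highly too, and their 16 markers summed to 194 to 215 FPKM without BAFF and 181 to 207 FPKM with BAFF 60mer. Among carrying libraries 2 members of the list fell and 1 rose.

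The glycan synthesis list gave 7 falls and no rise among 26 tested members (11 and 1 at an unadjusted limma p under 0.05), with 6 to 8 falls without any single library. The list does not hold the sialyltransferase gene St8sia6, which rose (above), so the lack of rises applies to its members only. B3gnt7, which like B3gnt8 extends lactosamine chains, was at 16.9, 16.9 and 15.6 FPKM without BAFF and 10.8, 12 and 11.8 FPKM with BAFF 60mer (-0.48 ± 0.0627, limma adjusted p = 0.000179). Gcnt1, which starts core 2 O-glycan branches, was at 14.8, 15.1 and 16.3 FPKM without BAFF and 11.5, 11.5 and 11.1 FPKM with BAFF 60mer (-0.41 ± 0.0721, limma adjusted p = 0.00191). B4galt3, a galactosyltransferase, was at 34.6, 29.2 and 29.9 FPKM without BAFF and 24.9, 24.7 and 23.3 FPKM with BAFF 60mer (-0.35 ± 0.0733, limma adjusted p = 0.00599). Each had treated libraries wholly below the untreated ones. Marginal zone B cell genes gave 5 rises and 4 falls among 19. Asb2 led the rises, and the falls included Rasgrp2, a Rap1 exchange factor, at 139, 141 and 148 FPKM without BAFF and 95.2, 96.7 and 112 FPKM with BAFF 60mer (-0.49 ± 0.0822, limma adjusted p = 0.00119). Among 17 TGF-beta and SMAD genes 1 rose, Skil, and 2 fell, Id3 and Smad7. Smad7, an inhibitor of the pathway, was at 39.5, 41.1 and 45.3 FPKM without BAFF and 27.3, 29.9 and 29.2 FPKM with BAFF 60mer (-0.53 ± 0.0693, limma adjusted p = 0.000205). Of 26 MYC and ribosome biogenesis genes 2 rose and 3 fell. Mxd4, a MYC antagonist that fell, was at 24.7, 25.1 and 26.9 FPKM without BAFF and 16.2, 16.5 and 17.6 FPKM with BAFF 60mer (-0.58 ± 0.0979, limma adjusted p = 0.00134), while Myc itself overlapped between groups at 201, 185 and 173 FPKM without BAFF and 229, 226 and 176 FPKM with BAFF 60mer and did not pass.

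Several lists held no or few called members. None of 31 tested type I interferon genes passed in either direction with limma; 4 were lower and 0 higher at an unadjusted p under 0.05, and the median log2 difference was -0.19. Isg15, a ubiquitin-like interferon product, was at 4.07, 6.95 and 9.89 FPKM without BAFF and 3.68, 4.38 and 6.69 FPKM with BAFF 60mer, with overlapping and widely spread groups. None of 9 immunoglobulin constant region genes passed with limma, nor was any at an unadjusted p under 0.05, and Ighm was at 2295, 2321 and 2281 FPKM without BAFF and 2171, 2332 and 2306 FPKM with BAFF 60mer. Of 26 S phase and mitosis genes 1 rose, Top2a. Of 26 cholesterol genes 2 rose, Hmgcs1 and Lss, and of 25 glycolysis and nutrient transport genes 3 fell and none rose (4 and 2 at an unadjusted limma p under 0.05). The 8 erythroid markers did not reach the minimum level.

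**Figure D3:**
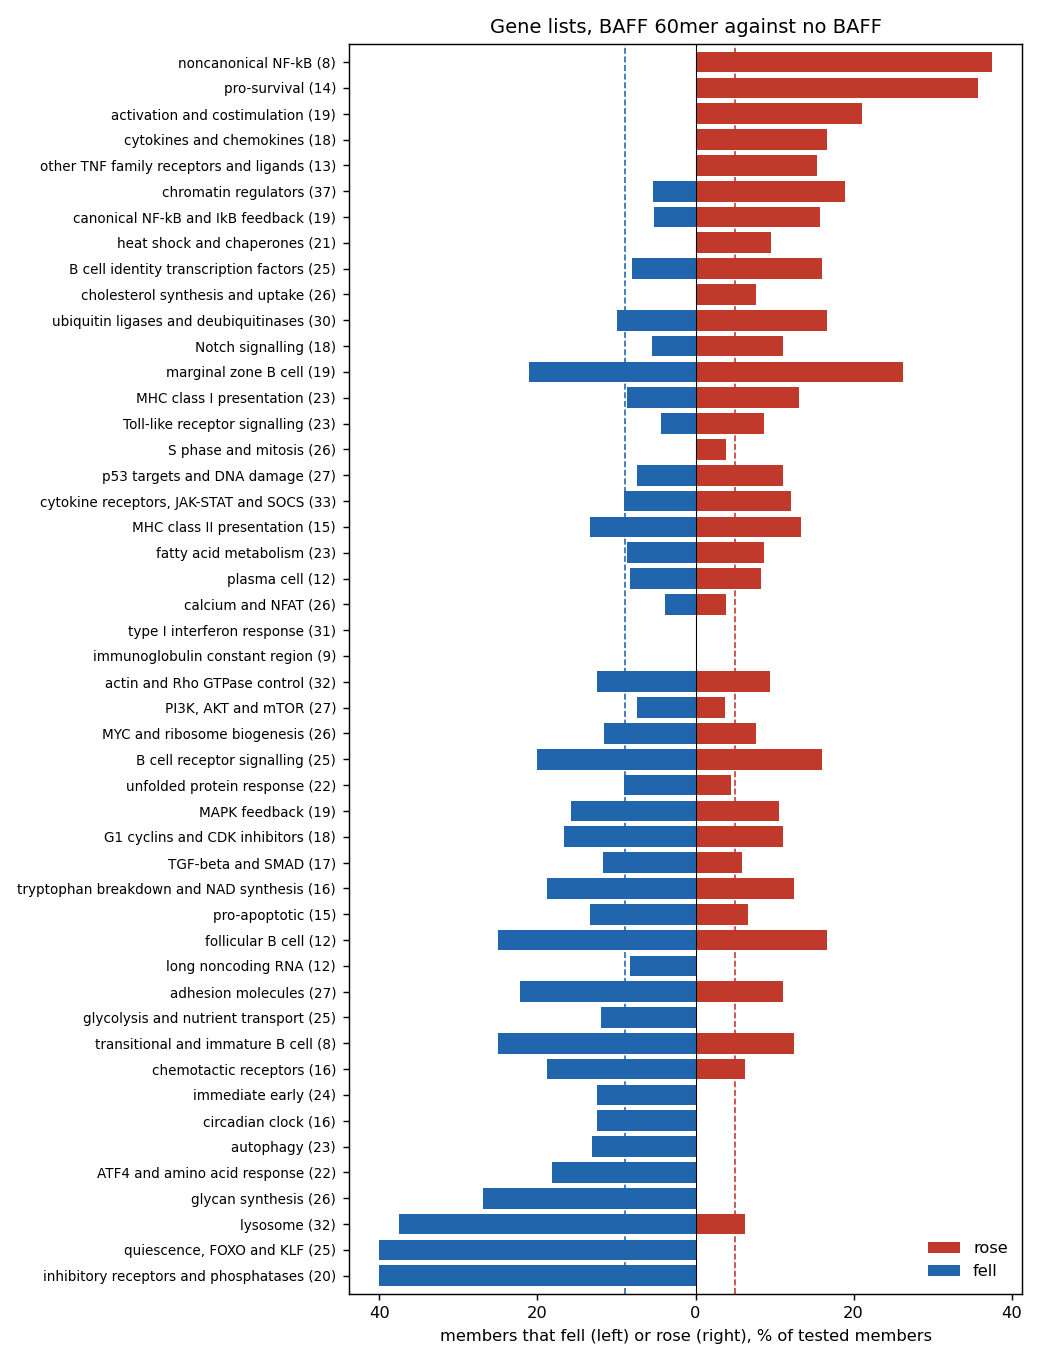
Share of tested members that rose (right, red) or fell (left, blue) in each gene list with at least 8 tested members, in % of the number in brackets. Dashed lines mark the shares over all tested genes, 5.04% and 8.94%; the noncanonical NF-kB and pro-survival lists reach furthest right and the inhibitory receptor, quiescence and lysosome lists furthest left.

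In FPKM rather than log2, the largest rises were those of abundant B cell transcripts. Tmem123 was at 357, 399 and 393 FPKM without BAFF and 470.0, 477 and 506 FPKM with BAFF 60mer (0.34 ± 0.0496, limma adjusted p = 0.000421). Syngr2, a vesicle protein, was at 356, 358 and 344 FPKM without BAFF and 450.4, 454 and 424 FPKM with BAFF 60mer (0.33 ± 0.045, limma adjusted p = 0.000298). Grap, an adaptor related to GRB2, was at 311, 292 and 288 FPKM without BAFF and 349.9, 373 and 413 FPKM with BAFF 60mer (0.35 ± 0.067, limma adjusted p = 0.00356). The treated libraries were above the untreated ones in all 3. Cd52 lost its call in 4, Hspa8 in 6 and Huwe1 in 2 of the 6 fits without a single library (limma adjusted p up to 0.195, 0.0758 and 0.0578). The largest fall in FPKM was that of Apoe, the lipoprotein that macrophages also make, at 861, 905 and 949 FPKM without BAFF and 477, 537 and 682 FPKM with BAFF 60mer (-0.69 ± 0.149, limma adjusted p = 0.00661). Snx5, a sorting nexin, was at 799.5, 816 and 777 FPKM without BAFF and 649, 653 and 598 FPKM with BAFF 60mer (-0.33 ± 0.0486, limma adjusted p = 0.000421). Plac8 was at 414, 438 and 402 FPKM without BAFF and 314, 302 and 297 FPKM with BAFF 60mer (-0.46 ± 0.0661, limma adjusted p = 0.000409). Fcrla, an intracellular Fc receptor-like protein of B cells, was at 465, 479.9 and 452 FPKM without BAFF and 361, 362 and 360.4 FPKM with BAFF 60mer (-0.37 ± 0.0396, limma adjusted p = 3.45e-05). Each of the 4 falls kept its call without any single library, whereas Ddx5 lost it in 5, Coro1a in 2 and Cd37 in 5 of the 6 fits (limma adjusted p up to 0.176, 0.0709 and 0.178).

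Called genes differed by length. The median exon length was 7461 bases for rises, 3934 for falls and 4070 for genes that did not pass. Among the 1156 tested genes of 9554 bases or more 203 rose and 41 fell, and among the 1157 genes of 2040 to 2743 bases 21 rose and 146 fell. After trends with length and GC content were removed from each library, 712 genes rose and 747 fell of 11568, 12.6% called, and 1022 of the 1628 calls were kept. In these 2 length classes the counts were then 82 and 131, and 70 and 64. Chromatin regulators, with a median exon length of 8780 bases, showed 7 rises and 2 falls among 37, and 5 rises and 3 falls after the length and GC correction. Kmt2a, a histone methyltransferase, was at 45.7, 43.8 and 54.1 FPKM without BAFF and 66.2, 59.2 and 58.7 FPKM with BAFF 60mer (0.36 ± 0.0845), and its call was lost in 3 of the 6 fits without a single library (limma adjusted p up to 0.0614). The number of rises in this list was 1 without replicate 1 and 2 without replicate 2 of the no-BAFF group, and 0 among carrying libraries, where 6 members were higher and 2 lower at an unadjusted limma p under 0.05.

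**Figure D4:**
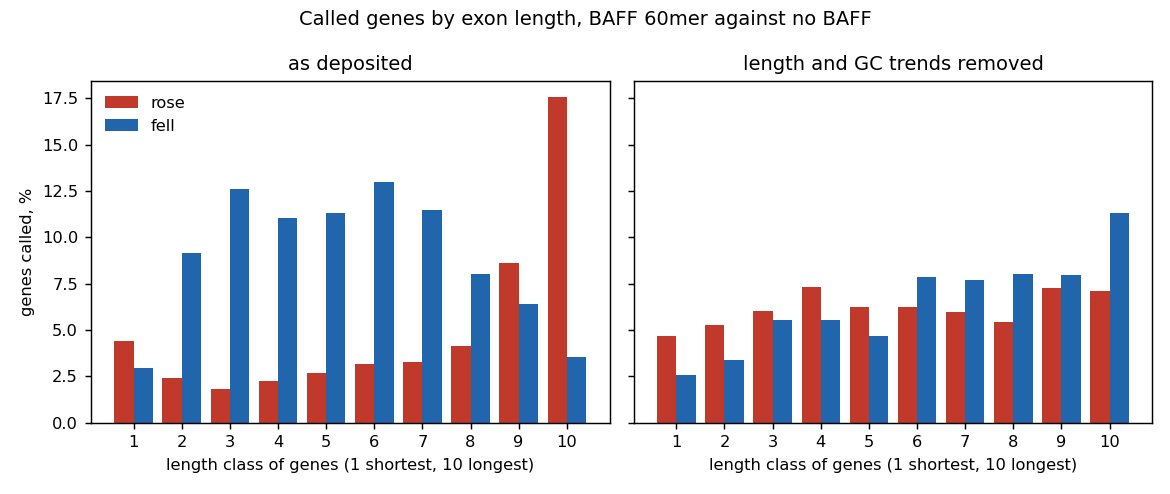
Share of genes that rose (red) or fell (blue), in %, in 10 classes of tested genes by exon length, for the values as deposited (left) and after length and GC trends were removed (right). As deposited, rises are most frequent in the class of longest genes (203 of 1156) and falls in the middle classes; after the correction the classes are more alike.

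Against all 3 libraries of BAFF 3mer under control antibody 560 genes passed, 4.81% of those tested. Against the 2 that carried connective tissue transcripts 246 passed, 2.11% of those tested, with 103 above and 143 below the BAFF 3mer level, and 233 of the 1628 calls were kept there. The reference has 2 libraries, and the median SE was 0.0871 against 0.0778. Kynu differed by 0.85 ± 0.0517 there (limma adjusted p = 2.80e-07), S1pr1 by -0.55 ± 0.04 (limma adjusted p = 2.21e-06) and Sdc1 by -0.84 ± 0.0854 (limma adjusted p = 8.85e-05). Birc3, Nfkb2 and Traf3 were all higher there, with differences of 0.31, 0.44 and 0.25. In the quiescence list 7 members were lower. Of the inhibitory receptor list 3 were lower, and of the pro-survival list 3 were higher. Some calls were not kept. Nfkbia differed by 0.21 (limma adjusted p = 0.119), Cflar by 0.12 (0.246), Siglecg by -0.29 (0.194), Tfeb by -0.23 (0.404) and Apoe by -0.46 (0.164). Differences more than 1.5 times smaller there, and not called, were also those of Lrrc18 (0.66), Cdkn2d (-0.52), Lpar5 (-0.22), Pirb (-0.15), Neu1 (-0.12), B4galt3 (-0.17), Cr2 (0.12) and Tnip2 (-0.19). That of Slc50a1 was -0.29 and kept its call. Bmf, Casp8, Tnfrsf13b, Lta, Icam1, H2-Ob, Cdkn1b, Cxcr5, Itgb7, Ceacam1, Mcoln2, Nrgn and Kmt2a were not called there either. When the fit of all libraries held a term for whether a library carried these transcripts, the median SE was 0.140. That term rests on replicate 3 of BAFF 3mer under control antibody against replicates 1 and 2. Every other group wholly carried or wholly lacked the transcripts, so the shift hangs on a single library. In the fit with the term 9 genes rose and 7 fell, 0.137% of those tested. The 9 were Kynu, Nid1, Ticam2, St8sia6, Lpcat1, Igkv14-111, Pikfyve, Rapgef1 and Cd44. The 7 were Gm47283, E330020D12Rik, Plk2, B3gnt7, Pik3ip1, S1pr1 and Sla, and of all 16 only Gm47283 was not called without the term. Nid1, Igkv14-111, Gm47283 and E330020D12Rik fall outside the rule for naming genes and are named because they make up this count.

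After mBaffR-mFc, 563 genes passed for BAFF 60mer against no BAFF (170 higher and 393 lower, 4.83% of those tested). That comparison shares no library with the one under control antibody. It lies across the same split, since all 3 of its BAFF 60mer libraries and none of its libraries without BAFF carried connective tissue transcripts. In the same direction 401 genes passed in both, 24.6% of the 1628 and 71.2% of the 563. Kynu differed by 0.81 ± 0.0488 there, S1pr1 by -0.51 ± 0.0346, Sdc1 by -0.72 ± 0.0783, Birc3 by 0.33 ± 0.036 and Cd44 by 0.36 ± 0.0443. The difference between the 2 effects passed for 1 gene, B3gnt7 (0.00859% of those tested). For that difference 640 of the 11646 tested genes had an unadjusted limma p under 0.05. This is close to the share that such a threshold passes where no effect differs. Under control antibody B3gnt7 fell by 0.48 on the log2 scale, and under mBaffR-mFc its difference was 0.11 ± 0.0627, which did not pass. The difference of the effects was -0.60 ± 0.0886 (limma adjusted p = 0.0468), and it did not pass when any single library of the 4 groups was left out. Klf4 (-0.53 ± 0.0838 under control antibody and -0.09 ± 0.0838 under mBaffR-mFc) and Ccnd2 (0.62 ± 0.0661 and 0.21 ± 0.0661) passed only under control antibody, but the difference of their effects did not (limma adjusted p = 0.711 and 0.511).

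**Figure D5:**
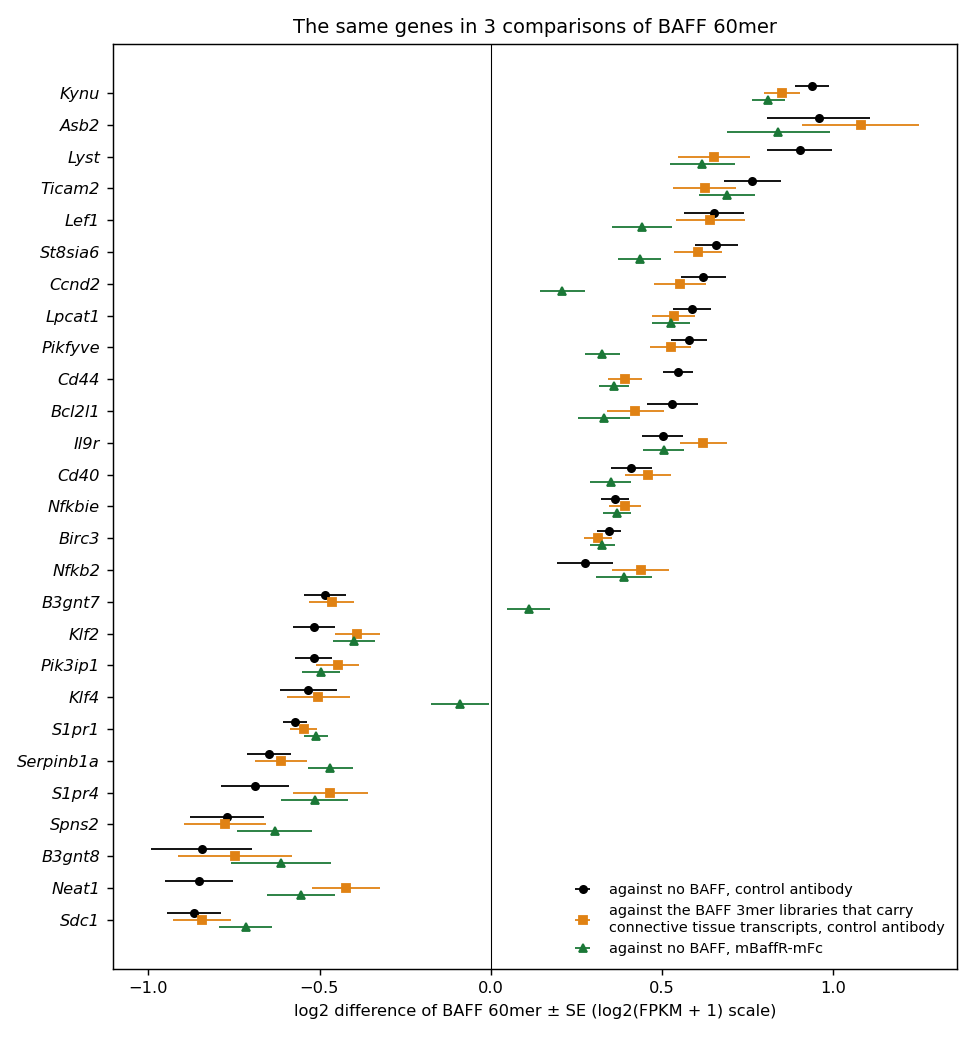
Log2 difference of BAFF 60mer (± SE, log2(FPKM + 1) scale) for 27 named genes in 3 comparisons: against no BAFF under control antibody (black circles), against the 2 carrying BAFF 3mer libraries (orange squares) and against no BAFF under mBaffR-mFc (green triangles). The markers of a gene lie on the same side of 0 except for B3gnt7, whose green triangle is above 0; the black and orange markers share the BAFF 60mer libraries.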

How the data were processed

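Gene expression was deposited as FPKM, which, per the labels' protocols, a sequencing company computed for the authors from total RNA extracted with a column kit and DNase. The aligner, counting tool, strand setting and genome build are not given in the sources used here. Of 35275 gene IDs, 34490 matched GENCODE mouse release M21, the source of symbols and exon lengths. Library totals (12.2 to 25.4 M fragments over the 18 libraries, median 18.4 M) were recovered from the steps between low FPKM values, of which 88.4% to 89.6% per library were whole to within 0.1. Since not nearly all were whole, no count test was run.

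Values were taken as log2(FPKM + 1), which makes differences of low genes smaller than their ratios. The 11646 genes whose 18-library mean reached 1 FPKM were fitted with limma 3.58.1 (R 4.3.3) with a trend in the variance and 1 fit over the 6 groups of 3. The call threshold was 0.05 after Benjamini-Hochberg adjustment over all tested genes. The steps were tested on simulated data. Replicate numbers follow the order of deposition.

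Named genes were the 12 largest log2 differences, the 6 smallest adjusted p and the 8 largest FPKM differences in each direction (called, separated, at least 2 FPKM in the higher group, no provisional symbol), and up to 4 called members of each of 50 lists, or 2 abundant members where none passed. Further list members are named to complete a count or as genes that did not pass, and were chosen after their values were seen (Relb, Nfkb1, Mcl1, Bcl2, Tnfrsf13c, Cd69, Cd86, Foxo1, Myc and Isg15). The members and lists were chosen with earlier results of these data known. Some lists share members. Alternatives were pseudocount 0.1, no filter or a minimum of 5 FPKM, median-of-ratios rescaling, a fit of only the groups compared, leaving out each library, the connective tissue term, the carrying libraries as reference, and a promoter window without the bases after the start. Rescaling over the tested genes only and the length and GC correction, for which 99.3% of tested genes had values, were chosen after seeing the data. Figures were drawn with matplotlib 3.10.9.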

Additional observations from a re-analysis of the deposited data

Results flagged for a closer look

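B3gnt7, an enzyme that extends lactosamine chains, was the gene for which the effect of BAFF 60mer differed between the pretreatments in a test of the difference itself. The effect under control antibody minus that under mBaffR-mFc was -0.60 on the log2 scale (SE 0.0886, limma adjusted p = 0.0468). Under control antibody B3gnt7 was at 16.9, 16.9 and 15.6 FPKM without BAFF and 10.8, 12 and 11.8 FPKM with BAFF 60mer. The difference no longer passed without any single library, after the length and GC correction, or with all genes above 0 in the fit.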

How the results depend on the processing

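With single libraries left out, rises ran from 264 to 568 and falls from 492 to 1100, calls against BAFF 3mer from 246 to 471, and calls for the difference between pretreatments were 0 throughout. The fit of only the groups compared gave 356 rises, 252 calls against BAFF 3mer (560, 4.81%, in the fit of all groups) and 0 calls for the difference between pretreatments, which was also 0 without the filter, after length and GC correction and after rescaling over the tested genes. Where limma called 0 genes for that difference, 472 to 1204 had an unadjusted p under 0.05. The main fit tested 11646 genes and the fit without the filter more. The connective tissue term gave 9 rises, 7 falls, 246 calls against BAFF 3mer and 2 for the difference. The carrying reference gave 103 and 143. The 246 calls against BAFF 3mer with the term, without replicate 3 of BAFF 3mer and with the carrying reference come from the same comparison. They are not separate checks. The cause of these shifts was not tested. In the window without the bases after the start, 4.523% of all promoters held the kB motif.

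Of 177 named called genes 108 kept their call without each single library in turn. With the carrying reference 111 did not keep their call in the same direction, with the connective tissue term 165, after length and GC correction 31, without the filter 41 and with pseudocount 0.1 only 1. Sign changes were those of Col3a1 (-0.3771 with the carrying reference and -0.3408 with the term), H60b (-0.03781 with the term), Insl3 (0.02023 with the carrying reference) and Cebpb (0.02257 after length and GC correction). Col3a1 is among the genes that define the carrying libraries, so its sign changes are no check.

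No paired analysis was possible because the labels give no replicate numbers. The library totals limit low genes: a single fragment on 1000 bases of gene was worth 0.0393 to 0.0818 FPKM.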
